A study of Mus musculus with 16 samples.

Results

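The genes described here encode 3 machines of the mitochondrial inner membrane, complex II, complex III and the ATP synthase, together with the factors that assemble the first 2 of these. They were chosen by name: all rows of the count table whose symbol begins Atp5, Uqcr, Uqcc, Sdha, Sdhb, Sdhc, Sdhd or Sdhaf, plus Cyc1, without rows marked as pseudogenes. That gave 36 of the 54108 rows with a gene symbol, of which 8 belong to complex II, 12 to complex III and 16 to the ATP synthase. Of the 36 genes, 35 passed the filter on low counts, and Atp5o was listed at 0 in all 8 libraries.

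The counts come from polyadenylated RNA of mouse heart ventricles at 8 weeks of age. The 4 knockout libraries (cKO) are from Rbpms fl/fl mice with Myh6-Cre, in which Cre recombinase is driven by a cardiomyocyte promoter and removes Rbpms, an RNA-binding protein. The 4 control libraries are from Rbpms fl/fl mice without Cre, so both genotypes carry the floxed allele, and an effect of Cre itself cannot be told apart from that of the deletion. Each genotype has 3 male libraries and 1 female library, which is replicate 3 in both. Ventricles of newborn mice are not analysed here. Whether a library pools several animals is not in the labels, and p-values reflect only how these libraries vary.

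Complex II, succinate dehydrogenase, oxidises succinate to fumarate in the TCA cycle and passes the electrons to ubiquinone. Complex III takes electrons from ubiquinol, hands them to cytochrome c and pumps protons, and the ATP synthase lets protons flow back through its rotor to make ATP. Heart muscle lives mainly on this oxidative ATP and holds some of the most densely packed mitochondria of the body. All complex II subunits are encoded in the nucleus, whereas cytochrome b of complex III and subunits a and 8 of the ATP synthase are encoded in mitochondrial DNA, outside the naming rule.

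Promoters of such genes are known for sites of NRF1, of ETS factors such as GABP, and of the oestrogen-related receptors (ERR), so upstream sequence is shown here for 6 members that represent the 3 complexes and the 3 motifs. The windows are RefSeq promoters of GRCm38.p6, from 250 bases before to 50 after a gene's start, and 28 of the 36 members had one. Each sequence below is the part upstream of the start that lies outside annotated exons, printed 5′ to 3′ on the gene's strand, which is the minus strand for all 6. Capitals mark the motif match. Sdha lies at chr13:74350281-74350308 and Uqcc2 at chr17:27133917-27134141, each with the NRF1 letters GCGC, any 2 bases and GCGC again. Atp5h lies at chr11:115419963-115420127, also with NRF1 letters. Sdhd at chr9:50603850-50603909 and Uqcrh at chr4:116075072-116075268 have the ETS letters CCGGAAG, read on the other strand as CTTCCGG. Atp5g3 at chr2:73911327-73911576 has the ERR letters TCAAGGTCA, read on the other strand as TGACCTTGA.
Sdha: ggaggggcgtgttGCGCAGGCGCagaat
Sdhd: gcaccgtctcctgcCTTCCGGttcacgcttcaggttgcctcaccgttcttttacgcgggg
Uqcrh: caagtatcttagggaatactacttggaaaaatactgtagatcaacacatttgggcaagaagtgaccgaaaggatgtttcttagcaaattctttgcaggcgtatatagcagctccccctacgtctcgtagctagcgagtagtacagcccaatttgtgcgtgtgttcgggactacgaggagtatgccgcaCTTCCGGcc
Uqcc2: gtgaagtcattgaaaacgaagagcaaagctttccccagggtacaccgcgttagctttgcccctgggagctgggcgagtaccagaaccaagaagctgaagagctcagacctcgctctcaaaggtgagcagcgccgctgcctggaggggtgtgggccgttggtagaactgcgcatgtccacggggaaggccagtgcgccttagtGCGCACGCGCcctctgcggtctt
Atp5h: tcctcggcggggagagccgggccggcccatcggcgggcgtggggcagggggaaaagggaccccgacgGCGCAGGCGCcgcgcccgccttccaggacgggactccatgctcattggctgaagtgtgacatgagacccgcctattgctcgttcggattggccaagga
Atp5g3: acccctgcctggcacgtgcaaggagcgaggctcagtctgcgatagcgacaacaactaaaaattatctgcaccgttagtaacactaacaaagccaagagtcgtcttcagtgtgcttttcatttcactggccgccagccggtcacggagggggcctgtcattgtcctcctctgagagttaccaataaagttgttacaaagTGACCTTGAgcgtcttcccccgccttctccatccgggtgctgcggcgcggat

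All motifs were searched on both strands of the whole window. NRF1 letters stood in 12 of the 28 members' windows (42.9%), against 7.0% of the windows of 27025 genes. ETS letters also stood in 12 members (42.9%), against 9.93% of all genes, and ERR letters in Atp5g3 and Sdhd (7.1%, against 0.47% of all genes). In all, 20 members held NRF1 or ETS letters, and 4 held both. Some matches lie in parts of a window that are not printed above. There, Sdhd also held NRF1 and ERR letters, Atp5h ETS letters and Atp5g3 NRF1 letters. The comparison is with all annotated genes, whose base composition and expression were not matched. In the hearts, 7 of 11 tested members with NRF1 letters fell, as did 10 of 16 without them, and 7 of 12 with ETS letters fell, as did 10 of 15 without them. A match is a run of letters and no measured binding site.

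Transcripts of all 3 complexes were lower in cKO ventricles. Of the 35 tested genes, 22 fell (an adjusted p under 0.05) and 0 rose, against 9.64% of all 16051 tested genes that fell, 9.64% that rose and 19.3% that changed in either direction. The log2 fold change, cKO over control, was below 0 for 33 of 35 members, against 49.4% of all tested genes. Its median was -0.32, and that of all tested genes was 0.01. The 2 genotypes did not overlap for 22 members, 21 of them lower in every cKO library and Sdhaf4 higher, against 23.5% of all tested genes (11.8% lower and 11.8% higher). By complex, 3 of 8 members fell for complex II, 9 of 12 for complex III and 10 of 15 tested for the ATP synthase. Falls were moderate, from 1.20-fold for Atp5e to 1.51-fold for Uqcrc1. In a bulk sample, fewer cells of a type and less RNA per cell cannot be told apart.

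**Figure D1:**
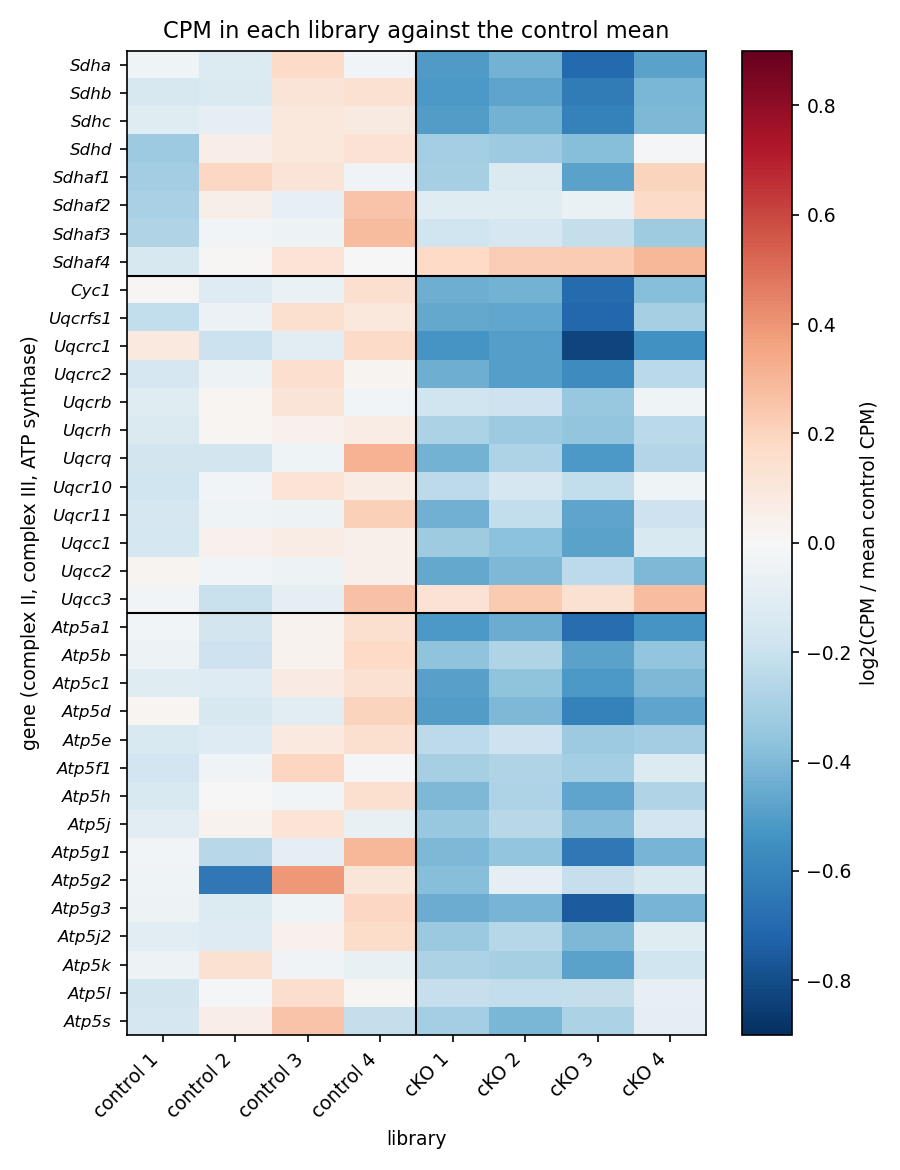
Level of each tested gene (rows) in each library (columns) as log2 of its CPM over the mean of the 4 control libraries; blue is lower and red is higher, black lines part the complexes and the genotypes. Most rows are blue in all 4 cKO columns, deepest in cKO 3, and the rows of Sdhaf4 and Uqcc3 are red there.

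Levels below are CPM, read counts scaled for library size by TMM, given in the order of replicates 1 to 4. Of the complex II subunits, Sdha, Sdhb and Sdhc fell, and their levels parted the genotypes. Sdha, the flavoprotein that binds succinate (chromosome 13, 74322254 to 74350280 in GRCm38), had 1577, 1491, 1831 and 1595 CPM in controls and 1140.2, 1208, 999 and 1164 CPM in cKO hearts. Every cKO library was below every control library, and the log2 fold change was -0.53 (standard error, SE, 0.09, adjusted p = 0.00238). Sdhb, the iron-sulphur protein that relays the electrons (chromosome 4, 140961203 to 140979193), had 489, 493, 584 and 593 CPM in controls and 378, 388, 349 and 405 CPM in cKO. Its groups were apart as well, with a log2 fold change of -0.51 (SE 0.09, adjusted p = 0.00244). Sdhc, a membrane anchor that helps to form the ubiquinone site (chromosome 1, 171127165 to 171150603), had 339, 347, 391 and 387 CPM in controls and 258, 272, 241 and 276 CPM in cKO. It fell by 0.48 on the log2 scale (SE 0.08, adjusted p = 0.00162), the smallest adjusted p among the members.

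Sdhd, the other membrane anchor, did not pass the test. It had 300.8, 394, 404 and 413 CPM in controls and 305, 302, 289.6 and 374 CPM in cKO. Control 1 was below 3 of the 4 cKO libraries, and cKO 4 was near the other controls. The log2 fold change was -0.25 (SE 0.12, adjusted p = 0.161). Without control 1 it was -0.35 with an adjusted p of 0.0372. Reads of Sdhd per read of Sdha were 0.191 to 0.264 in controls and 0.250 to 0.321 in cKO, a pair chosen after the values were seen and not tested.

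None of the 4 assembly factors of complex II passed the test, and their median log2 fold change was -0.09, against -0.49 for the 4 subunits. These genes also had far fewer reads than the subunits. Sdhaf1 and Sdhaf3, which help the iron-sulphur clusters into Sdhb, had log2 fold changes of -0.16 (SE 0.18, adjusted p = 0.603) and -0.21 (SE 0.13, adjusted p = 0.286). Sdhaf2, which attaches the flavin to Sdha, averaged 69.1 ± 11 CPM (SD, n = 4) in controls and 68.0 ± 6.68 CPM (SD, n = 4) in cKO. Sdhaf4, which binds free flavinated Sdha, had 17.1, 19.1, 20.6 and 18.9 CPM in controls and 21.4, 22.1, 22.2 and 23.3 CPM in cKO. It was higher in every cKO library, with a log2 fold change of 0.23 (SE 0.09) and an adjusted p of 0.0823. When libraries were scaled by total counts only, it passed (log2 fold change 0.32, adjusted p = 0.0344). A same-locus transcript on the other strand, Gm26524, overlaps 12.7% of Sdhaf4 exon sequence, and E130208F15Rik overlaps 69.6% of that of Sdhaf1. The strand setting of the counting is not given in the sources used here, so the values of these 2 factors are uncertain.

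In complex III, the 2 nuclear-encoded catalytic subunits and the 2 core proteins fell. All had separate groups, and their median log2 fold change was -0.48. Cyc1, cytochrome c1, which passes electrons to cytochrome c (chromosome 15, 76343523 to 76346260), had 487, 446, 463 and 533 CPM in controls and 356, 359, 299 and 369 CPM in cKO. Its log2 fold change was -0.48 (SE 0.09, adjusted p = 0.00324). Uqcrfs1, the Rieske iron-sulphur protein that takes electrons from ubiquinol (chromosome 13, 30540308 to 30545362), had 541, 606, 697 and 673.5 CPM in controls and 458, 454.5, 386 and 511 CPM in cKO. It fell by 0.48 on the log2 scale (SE 0.11, adjusted p = 0.00845).

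Uqcrc1, a core protein of the matrix side (chromosome 9, 108936633 to 108949623), moved farthest of all members. Its levels were 929, 763, 817 and 984 CPM in controls and 603, 620.3, 493 and 599.9 CPM in cKO. All cKO libraries were below all controls, and cKO 3 was lowest. The log2 fold change was -0.59 (SE 0.10, adjusted p = 0.00231). Uqcrc2, its partner (chromosome 7, 120635176 to 120659524), had 609, 653, 752 and 689 CPM in controls and 498, 480.2, 456.5 and 571.5 CPM in cKO. Here too the groups were apart, at a log2 fold change of -0.43 (SE 0.09, adjusted p = 0.00784). The adjusted p of Uqcrc2 was 0.0536 in males only, and 19.7% of its exon sequence overlaps Pdzd9 on the other strand.

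The small subunits of complex III surround the catalytic core, and 3 of 5 fell, with a median log2 fold change of -0.30. Whether they differ from the catalytic and core subunits was not tested. Uqcrh, the hinge protein, had 353, 391, 395 and 403 CPM in controls and 317, 308, 301 and 326 CPM in cKO, with a log2 fold change of -0.30 (SE 0.07, adjusted p = 0.0128). Uqcrq had 174, 174.5, 191 and 243 CPM in controls and 146, 162, 137 and 163 CPM in cKO, with a log2 fold change of -0.36 (SE 0.11, adjusted p = 0.0402). Uqcr11 had 150.5, 163, 162 and 194 CPM in controls and 124, 143.5, 121 and 147.5 CPM in cKO, with a log2 fold change of -0.32 (SE 0.10, adjusted p = 0.0399). For all 3 the genotypes were apart, and control 4 was the highest library. The calls of Uqcrq and Uqcr11 were close to the threshold. Leaving out control 3, control 4, cKO 1, cKO 2, cKO 3 or cKO 4 in turn gave Uqcrq an adjusted p of 0.0561 to 0.115. Its log2 fold change stayed between -0.25 and -0.42 whichever library was left out. Leaving out control 2, control 3, control 4, cKO 1, cKO 2 or cKO 3 gave Uqcr11 one of 0.0516 to 0.127, and its log2 fold change stayed between -0.25 and -0.37. Uqcrb and Uqcr10 were not called, with log2 fold changes of -0.18 (SE 0.08, adjusted p = 0.156) and -0.16 (SE 0.08, adjusted p = 0.227), and their groups overlapped.

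Of the complex III assembly factors, Uqcc1 and Uqcc2 fell and Uqcc3 did not. Uqcc1 and Uqcc2 act together on newly made cytochrome b. Uqcc2 (chromosome 17, 27122663 to 27133916), whose upstream sequence is printed above, had 42.1, 40.8, 40.0 and 42.6 CPM in controls and 30.1, 31.2, 35.1 and 31.2 CPM in cKO. The controls lay close together, all cKO libraries were lower, and the log2 fold change was -0.37 (SE 0.08, adjusted p = 0.00522). Among the 8 members under 100 CPM it was the only one that fell. Uqcc1 had 170.7, 196, 199.5 and 197 CPM in controls and 153, 148, 136 and 174 CPM in cKO. Control 1 was below cKO 4, so the groups overlapped, and the log2 fold change was -0.32 (SE 0.09, adjusted p = 0.0261). Uqcc1 lost the call when any library other than control 1 or cKO 4 was left out, with an adjusted p of 0.0522 to 0.0708. Uqcc3, which acts after these 2 in the same pathway, averaged 17.6 ± 2.51 CPM (SD, n = 4) in controls and 20.2 ± 1.03 CPM (SD, n = 4) in cKO, with a log2 fold change of 0.20 (SE 0.11, adjusted p = 0.238). Reads of Uqcc3 per read of Uqcrc1 were 0.0186 to 0.0216 in controls and 0.0321 to 0.0393 in cKO, again a pair chosen after the values were seen.

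**Figure D2:**
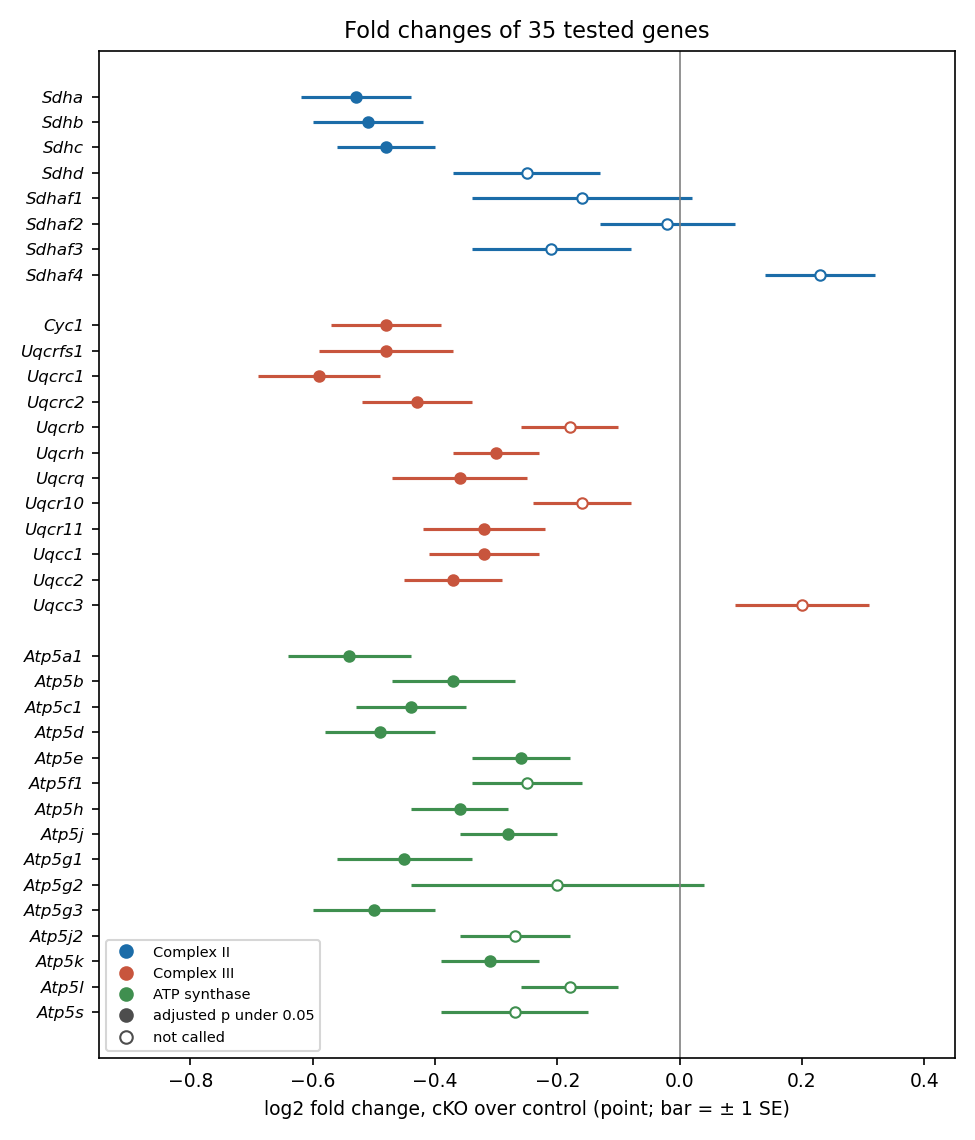
Log2 fold change, cKO over control, of the 35 tested genes in order of complex and role, with bars of 1 standard error; filled points passed an adjusted p of 0.05 and open points did not. Nuclear-encoded catalytic and core subunits of complex III lie between -0.43 and -0.59 and its small subunits between -0.16 and -0.36. The 2 points right of 0 are Sdhaf4 and Uqcc3.

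The ATP synthase genes that fell belong to the catalytic head, both stalks, the rotor ring and the membrane part. Atp5a1 (alpha subunit, chromosome 18, 77773729 to 77782869) and Atp5b (beta subunit, chromosome 10, 128083273 to 128090391) form the F1 head, in which the beta subunits make ATP. Atp5a1 had 3573, 3236, 3713 and 4017 CPM in controls and 2544, 2672, 2257 and 2514 CPM in cKO. The gap between the groups was wide, and the log2 fold change was -0.54 (SE 0.10, adjusted p = 0.00225). Atp5b had 3632, 3306, 3836 and 4250.1 CPM in controls and 2917, 3121, 2688 and 2929.6 CPM in cKO. Its groups were apart but closer, at a log2 fold change of -0.37 (SE 0.10, adjusted p = 0.0217). Without control 3, cKO 1, cKO 3 or cKO 4 the adjusted p of Atp5b was 0.0512 to 0.0714.

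The 3 central stalk subunits, which turn inside the head, all fell. Atp5c1 (gamma subunit, chromosome 2, 10056016 to 10080510) had 983, 977, 1112 and 1162 CPM in controls and 754, 822, 739 and 799.96 CPM in cKO, with a log2 fold change of -0.44 (SE 0.09, adjusted p = 0.00387). Atp5d (delta subunit, chromosome 10, 80138632 to 80145818) had 299, 268, 275 and 340.2 CPM in controls and 209, 223, 194 and 213 CPM in cKO, with a log2 fold change of -0.49 (SE 0.09, adjusted p = 0.00267). Atp5e (epsilon subunit) had 149.5, 152, 174.5 and 182 CPM in controls and 139.8, 144.5, 131 and 133 CPM in cKO, with a log2 fold change of -0.26 (SE 0.08, adjusted p = 0.0467, and 0.0511 with no filter on low counts). No cKO library reached a control library for any of the 3. The gap was narrow for Atp5e, and leaving out any library other than control 1 or control 2 gave it an adjusted p of 0.0633 to 0.114.

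The peripheral stalk keeps the head from turning with the rotor, and 2 of its 3 tested subunits fell. Atp5h (subunit d, chromosome 11, 115415689 to 115419962) had 389, 431, 421 and 474.5 CPM in controls and 323.5, 353, 308 and 355 CPM in cKO, with a log2 fold change of -0.36 (SE 0.08, adjusted p = 0.0116). Atp5j (coupling factor 6) had 322, 351, 375 and 329 CPM in controls and 272, 289.7, 263 and 306 CPM in cKO, with a log2 fold change of -0.28 (SE 0.08, adjusted p = 0.0284). For both, all cKO libraries were below all controls. Atp5j lost the call without control 2, control 3, cKO 1, cKO 2 or cKO 3, with an adjusted p of 0.0558 to 0.0954. Gabpa, the gene of a GABP subunit on the other strand, overlaps 12.7% of Atp5j exon sequence. Atp5f1 (subunit b) averaged 816 ± 86.3 CPM (SD, n = 4) in controls and 687 ± 41.6 CPM (SD, n = 4) in cKO. Its log2 fold change of -0.25 had an adjusted p of 0.0811 in edgeR, 0.0365 in DESeq2 and 0.0465 in edgeR without control 1.

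Atp5o, which encodes the oligomycin sensitivity protein at the top of the stalk, could not be measured. GENCODE M21 holds 2 overlapping gene models of this symbol on chromosome 16, at 91684398 to 91926982 and 91925214 to 91931687, which share 243 bases of exon. The first model also shares 287 bases with Donson. A count of 0 is listed in each library. For counting error alone it allows up to 3 counts, or 0.119 to 0.157 CPM. How reads in the shared exons were treated is not given in the sources used here, so this is no limit on expression.

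Subunit c forms the ring that protons turn, and 3 genes with different import signals encode the same mature protein. Atp5g3 and Atp5g1 fell. Atp5g3 (chromosome 2, 73908447 to 73911326), whose upstream sequence with ERR letters is printed above, had 771, 729.7, 776.5 and 905 CPM in controls and 585, 595, 474 and 595 CPM in cKO. The groups were apart, 3 of the cKO libraries lay together and cKO 3 lay lower. Its log2 fold change was -0.50 (SE 0.10, adjusted p = 0.00455). Atp5g1 (chromosome 11, 96068852 to 96075670) had 308.5, 264, 296 and 386 CPM in controls and 237, 245.5, 200.4 and 234.5 CPM in cKO, with a log2 fold change of -0.45 (SE 0.11, adjusted p = 0.0164). Its cKO libraries were all below the lowest control, which was control 2.

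Atp5g2 was read rarely, with 51, 31, 74 and 49 counts in controls and 44, 51, 52 and 50 counts in cKO. Its groups overlapped, and its log2 fold change of -0.20 (SE 0.24) had an adjusted p of 0.617. Processed copies with stretches of at least 97% identity exist elsewhere in the genome (Gm10175 shares up to 645 bases), so its reads could be split. The same limit holds for Atp5g1 (Gm10039, up to 411 bases), Atp5h (Gm10250, 485 bases) and Uqcr11 (Gm16418, 171 bases), which fell. It also holds for Atp5f1, Atp5l and Uqcrb, which were not called. Per kilobase of exon, Atp5g3 made up 84.9% ± 0.898 (SD, n = 4) of the subunit c counts in controls and 84.3% ± 0.417 (SD, n = 4) in cKO. Atp5g1 made up 14.8% ± 0.883 (SD, n = 4) and 15.3% ± 0.380 (SD, n = 4), and Atp5g2 0.329% ± 0.0877 (SD, n = 4) and 0.407% ± 0.0537 (SD, n = 4). Exact two-sided permutation tests of the 3 shares over the 8 libraries gave p = 0.286, 0.343 and 0.2, each 0.343 after adjustment over the 3 shares. A shift in the mix of the 3 genes was therefore not detected at this number of libraries. The shares themselves depend on the length used: that of Atp5g1 in controls was 28.1% of raw counts and 5.66% per kilobase of the main transcript, against 14.8% per kilobase of all annotated exons. That of Atp5g3 was 71.7% and 94.1% by the same measures.

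Of 3 small membrane subunits, Atp5k fell. Atp5k (subunit e), which sits where 2 synthases pair, had 115, 131, 117 and 114 CPM in controls and 98.0, 96.9, 85.4 and 105 CPM in cKO. All cKO libraries were lower, with a log2 fold change of -0.31 (SE 0.08, adjusted p = 0.0231). Without control 2, cKO 1, cKO 2 or cKO 3 the adjusted p of Atp5k was 0.0532 to 0.0677. Atp5j2 (subunit f) had 279.6, 277, 309 and 336 CPM in controls and 238, 251, 227 and 278 CPM in cKO, so that cKO 4 passed control 2. Its log2 fold change was -0.27 (SE 0.09, adjusted p = 0.0573), and without cKO 4 it was -0.33 with an adjusted p of 0.0391. DESeq2 gave Atp5j2 an adjusted p of 0.0278. Atp5l (subunit g) and Atp5s, a coupling factor outside the core structure, had log2 fold changes of -0.18 (SE 0.08, adjusted p = 0.156) and -0.27 (SE 0.12, adjusted p = 0.136). Atp5l has processed copies of high identity over at least 309 bases. A pair of ATP synthase subunits carry symbols outside the naming rule: Usmg5 had a log2 fold change of -0.19 (SE 0.09, adjusted p = 0.194) and 2010107E04Rik one of -0.24 (SE 0.08, adjusted p = 0.0507).

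Among the members, log2 fold changes were lower in the groups with more reads. Of 18 members with a control mean above 300 CPM, 15 fell, with a median log2 fold change of -0.45. Of 9 between 100 and 300 CPM, 6 fell (median -0.31), and of 8 under 100 CPM, 1 fell (median -0.18). Log2 fold change and log2 control CPM had a Pearson correlation of -0.67 and a Spearman correlation of -0.73 over the 35 members, and -0.58 and -0.64 over the 27 tested subunits. Per kilobase of exon they were -0.57 and -0.59 over the members and -0.44 and -0.39 over the subunits. Length of the main transcript and log2 fold change had correlations of -0.66 and -0.62 over the subunits and -0.28 and -0.28 over the members, so level and length cannot be told apart among the subunits. These are across genes of the same 8 libraries, the control level enters both axes, and genes are not independent replicates. Abundant genes also have more reads behind each value. Of all 489 tested genes with a control mean of at least 300 CPM, 30.9% fell, with a median log2 fold change of -0.17. Assembly factors had a median log2 fold change of -0.16 with 2 of 7 called, against -0.36 with 20 of 27 called for subunits.

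**Figure D3:**
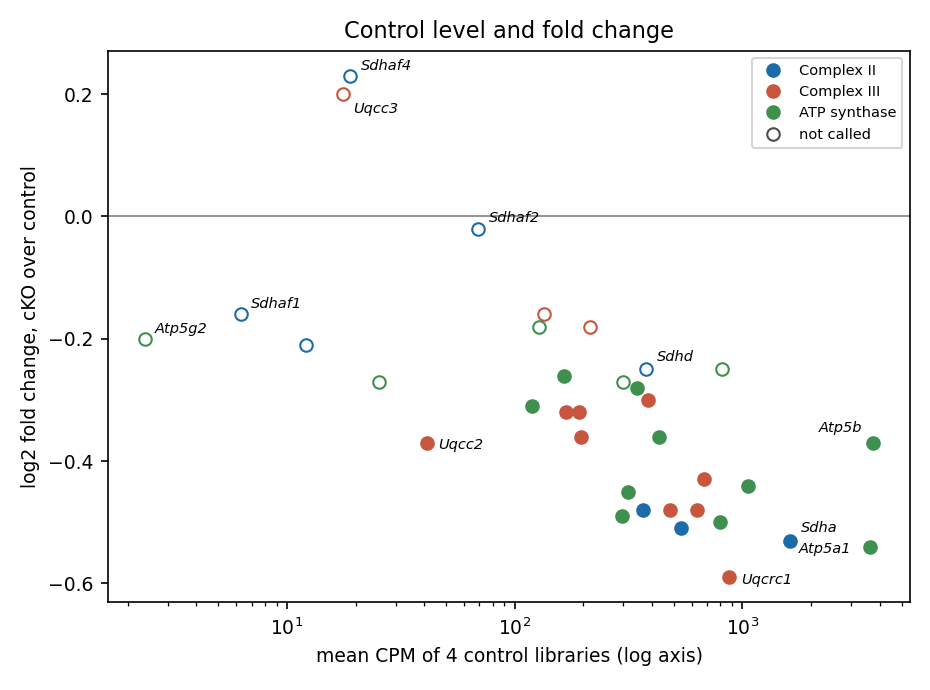
Log2 fold change, cKO over control, against the mean CPM of the 4 control libraries on a log axis, 1 point per tested gene, coloured by complex; open points were not called. Points run from the upper left, with Sdhaf4 and Uqcc3, to the lower right, with Uqcrc1, Sdha and Atp5a1, and Uqcc2 is the filled point farthest to the left.

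The libraries differed in how far they took part. Library cKO 3, the female knockout, was the lowest of all 8 for 26 of 35 members. Control 4 was the highest for 19 and control 3, the female control, for 12. Together the members made up 1.79% to 1.96% of the counts of each control library and 1.34% to 1.56% of those of each cKO library. Summed CPM ranged from 2794 to 3316 in controls and 1982 to 2337 in cKO for complex II, from 3791 to 4331 and 2669 to 3253 for complex III, and from 11080 to 13460 and 8361 to 9622 for the ATP synthase. The genotypes did not overlap for any of the 3 sums. Abundant genes weigh most in them: in controls, Atp5a1 and Atp5b together had 6542 to 8267 CPM and Sdha 1491 to 1831 CPM. With cKO 3 left out, 15 members fell (median log2 fold change -0.28), and 15 fell without cKO 1 (median -0.32). In the 3 males of each genotype, 12 members fell (median -0.27), and 33 of 35 had a log2 fold change below 0. Calls over all genes were also fewer: 1221 fell without cKO 3, 1093 without cKO 1 and 1166 in males only, against 1547 with all 8 libraries. Of the ATP synthase genes, 6 fell without cKO 1, 6 without cKO 3 and 5 in males only.

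**Figure D4:**
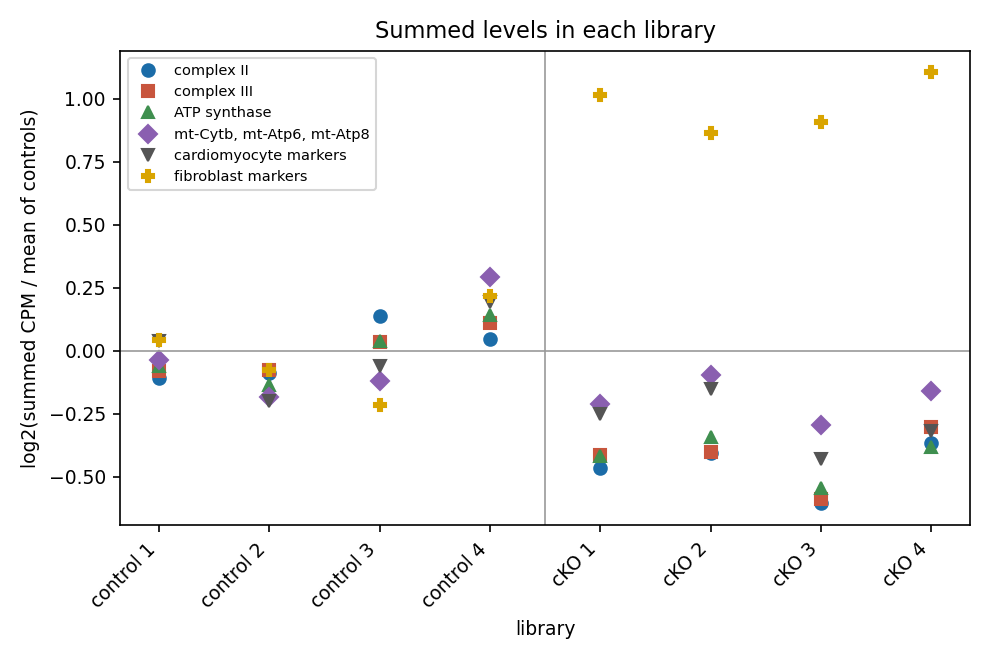
Summed CPM of each gene set in each library, as log2 over the mean of the 4 controls; symbols mark complex II, complex III, the ATP synthase, the 3 mitochondrially encoded genes, cardiomyocyte markers and fibroblast markers. The 3 complexes lie below 0 in all 4 cKO libraries, the mitochondrially encoded genes overlap between genotypes, and fibroblast markers lie above 0 in all cKO libraries.

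The partner subunits from mitochondrial DNA did not pass the test. Log2 fold changes were -0.18 (SE 0.12, adjusted p = 0.327) for mt-Cytb, cytochrome b of complex III, -0.23 (SE 0.12, adjusted p = 0.204) for mt-Atp6 and -0.19 (SE 0.11, adjusted p = 0.259) for mt-Atp8. Their summed level was 14920 to 20750 CPM in controls and 13820 to 15860 CPM in cKO, with control 4 the highest. Whether they differ in response from the nuclear subunits was not tested. Mitochondrially encoded RNA made up 8.04% to 11.8% of the counts of a library.

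Some factors that build or serve these complexes fell too, and 0 members of any of the pathway lists rose. Over all tested genes, 9.64% fell and 9.64% rose. Of 6 ATP synthase assembly and inhibitor genes 4 fell: Fmc1 (log2 fold change -0.63, SE 0.09, adjusted p = 0.000753), Tmem70, which helps to build the c-ring (-0.50, SE 0.10, adjusted p = 0.00553), Atpaf1 and Atpaf2. Fmc1 went from 25.01, 25.2, 26.9 and 28.2 CPM in controls to 15.5, 18.6, 15.8 and 18.1 CPM in cKO, with groups far apart. Atpif1, the inhibitor that holds the synthase from running backwards, had a log2 fold change of 0.20 (SE 0.13, adjusted p = 0.299). Of 3 further complex III assembly genes, Bcs1l, which inserts the Rieske protein, fell by 0.36 on the log2 scale (SE 0.11, adjusted p = 0.0396) and Ttc19 by 0.26 (SE 0.08, adjusted p = 0.0372), and Lyrm7 was not called (0.24, SE 0.19, adjusted p = 0.443). Of 3 carriers, Slc25a3, which brings in phosphate for ATP synthesis, fell by 0.42 (SE 0.09, adjusted p = 0.00512), and Slc25a4, the main ADP and ATP exchanger of the heart, was not called (-0.22, SE 0.10, adjusted p = 0.147).

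Among genes that feed or surround the complexes, the lists differed in how many members passed the test. For comparison, 9.64% of all 16051 tested genes fell, and 30.9% of the 489 with a control mean of at least 300 CPM. Of 13 genes of coenzyme Q synthesis, the electron carrier between complexes II and III, 8 fell (median log2 fold change -0.44), led by Coq9 (-0.65, SE 0.08, adjusted p = 0.000351), from 294 ± 23.0 CPM (SD, n = 4) to 187 ± 13.4 CPM (SD, n = 4). Of 14 other TCA cycle enzymes 9 fell (median -0.46), with Idh3a at -0.65 (SE 0.09, adjusted p = 0.000587) and Suclg1, which makes the succinate that complex II oxidises, at -0.60 (SE 0.09, adjusted p = 0.00081). Cytochrome c itself was not called (Cycs, -0.29, SE 0.11, adjusted p = 0.101). In iron-sulphur cluster assembly, which supplies Sdhb and Uqcrfs1, the median over 14 tested genes was -0.19, and Iba57 fell by 0.69 on the log2 scale (SE 0.15, adjusted p = 0.00805). Of 6 cristae junction genes 3 fell (median -0.31), and of 3 supercomplex factors 0 passed the test (median -0.25). The most like sets, for complex I and cytochrome oxidase, were taken by symbol. Of 38 genes that begin Nduf, without assembly factors, 29 fell with a median of -0.37. They include Ndufa4 and Ndufa4l2, which are not complex I subunits and were not called (log2 fold changes -0.21 and 0.01). Of 16 tested genes that begin Cox4, Cox5, Cox6, Cox7 or Cox8, 9 fell with a median of -0.31. Cox7a2l is in this set and also among the supercomplex factors. A difference between these sets and the members was not tested.

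**Figure D5:**
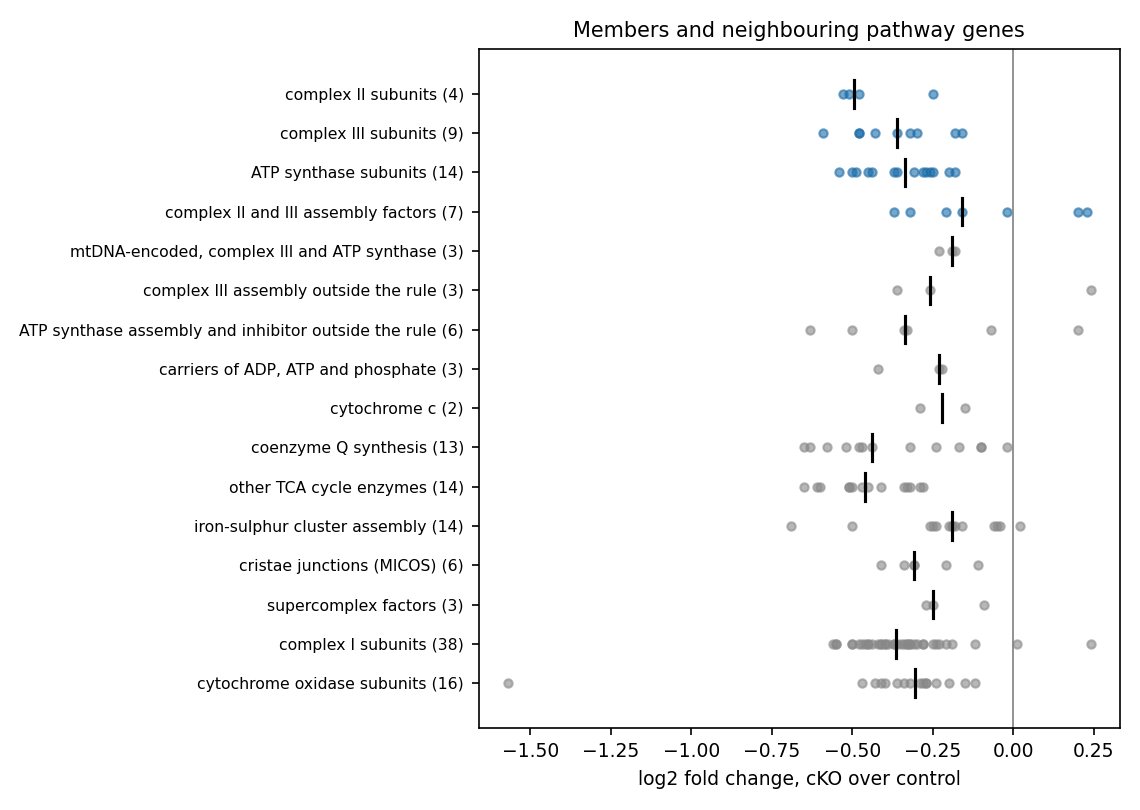
Log2 fold change, cKO over control, of each tested gene (points) by gene set, with the number of genes in brackets and the median as a black line; blue points are members and grey points are other genes of the pathway. Medians of subunit sets lie between -0.31 and -0.49, and those of iron-sulphur assembly and of the mitochondrially encoded genes lie at -0.19. The complex I set was taken by symbol and includes Ndufa4 and Ndufa4l2, which are not complex I subunits.

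Some markers of the cell types in a ventricle moved beside these results, and their part in them was not tested. Of all tested genes, 9.64% fell and 9.64% rose. Of 12 cardiomyocyte markers 2 fell and 0 rose (Ryr2 and Tnni3, median -0.21), with a summed level of 48750 to 63980 CPM in controls and 41630 to 50460 CPM in cKO, which overlap. All 11 fibroblast markers rose (median log2 fold change 1.22), from sums of 2648 to 3572 CPM to sums of 5604 to 6617 CPM. Macrophage markers had 2 of 9 that rose (median 0.26) and sums of 167 to 266 CPM in controls and 269 to 314 CPM in cKO. Endothelial markers had 1 of 9 that fell (median -0.08), and smooth muscle and pericyte markers had 1 that rose and 2 that fell of 9 (median 0.01). Sums of the smooth muscle and pericyte list were 2381 to 2724 CPM in controls and 1825 to 2170 CPM in cKO. Abcc9, an abundant gene of that list, fell from a mean of 1016 CPM to 499 CPM, and the gap between these sums rests on it. Rgs5, the other abundant gene there, averaged 1027 CPM in controls and 1038 CPM in cKO. Which cells the Abcc9 reads come from was not tested. Brown and white fat, another tissue rich in mitochondria, had 1 of 4 tested markers that rose (Cidea), with Ucp1 and Lep below the filter. Ucp1 was at 0 in all controls and in cKO 3 and at 5.05 CPM in cKO 1, and the list had sums of 18.6 to 24.9 CPM and 31.7 to 52.7 CPM. Most of each sum was Cidea, at 13.4 to 22.9 CPM in controls and 27.25 to 29.4 CPM in cKO. Adipoq, Plin1 and Cfd were not called, and their groups overlapped. Of 9 skeletal muscle markers 5 were tested and 1 fell (Ckm). Control 4 stood apart in this list: Myh4 was at 58.2 CPM there and at 0 in controls 1 to 3, Myh1 at 11.2 CPM and Tnnt3 at 18.1 CPM, each the highest of the 8 libraries. Summed levels of the list were 818 to 1259 CPM in controls and 497 to 572 CPM in cKO, most of it Ckm, which heart muscle also expresses. Without control 4, the highest library for 19 members, 18 members fell (median log2 fold change -0.31). Of 5 erythroid and 3 tested atrial markers 0 were called. Rbpms was lower in every library labelled cKO than in every control.

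The choice of scaling changed how many members were called. With libraries scaled by total counts only, 15 members fell and 1, Sdhaf4, rose. The members that lost the call were Atp5e, Atp5j, Atp5k, Uqcc1, Uqcr11, Uqcrh and Uqcrq, with adjusted p from 0.0535 to 0.131, and the median log2 fold change of members was -0.23 when that of all genes was 0.09, against -0.32 and 0.01 with TMM. Over all genes, 66.1% of calls were then rises, against 50% with TMM. Of the 22 members that fell, 11 kept the call in each of the 19 alternatives: Sdha, Sdhb, Sdhc, Cyc1, Uqcrfs1, Uqcrc1, Uqcc2, Atp5a1, Atp5c1, Atp5d and Atp5g3. The log2 fold change was below 0 in every alternative for 32 of the 35 tested members, all but Sdhaf2, Sdhaf4 and Uqcc3.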

How the data were processed

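Stranded paired-end libraries of polyadenylated ventricular RNA were sequenced, per the labels' protocols. The authors deposited raw counts, 1 row per gene symbol and 1 column per library. According to the submitters' processing notes, edgeR 3.30.3, featureCounts 1.6.0, HISAT2 2.0.4 and FastQC 0.11.4 were used, and the notes list mm10 and GRCm38 as builds, with no role or order. Not given in the sources used here are the gene annotation, whether counting used strand, and how reads that fit several places or genes were treated. The table has 54132 rows and 8 library columns. The 24 rows whose name is a number were left out and hold 0.115% to 0.132% of a library's counts. Totals were 20190334 to 24540433 counts per library.

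Counts were tested with the two-sided quasi-likelihood test of edgeR 4.0.16 (R 4.3.3, limma 3.58.1). The model held genotype alone, with TMM scaling and the default filterByExpr, and p-values were adjusted by Benjamini-Hochberg over 16051 genes, at a threshold of 0.05. A gene that rose, fell or was called passed this threshold. The standard error was taken as the size of the log2 fold change over the root of F. Subunit c shares were compared with exact permutation tests over libraries, whose smallest possible p with 4 against 4 is 0.0286. The procedure was tested on simulated data. Chi-square per degree of freedom between replicates was 7.90 to 33.9, so no library was a copy of another.

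Every member could be named, with the value in each library for those that passed the test and for 14 listed subunits, and up to 4 genes with the smallest adjusted p from each pathway list. Some of the genes this takes are left out of the text. Members, lists and tests were chosen with earlier results of these data known, and no p was adjusted over a list alone. Positions and lengths are from GENCODE M21 (GRCm38), where 53067 symbols (98.0%) were found, and promoters are from RefSeq (GRCm38.p6). Near-identical copies are stretches of at least 100 bases and 97% identity. Alternatives were DESeq2 1.42.0 size factors, total counts, no filter and a stricter filter (at least 1 CPM in 4 libraries), the DESeq2 and limma-voom tests, robust dispersions, sex as a covariate, males only, no mitochondrially encoded genes, each library left out and a threshold of 0.01. For subunit c shares, raw counts were tried, and lengths of the main transcript were added after the data were seen.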

Additional observations from a re-analysis of the deposited data

Results flagged for a closer look

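In 6 of the 70 groups of 4 libraries that were checked, 1 library lay so far from the other three that its gap, as a part of the group's range, was above Dixon's 95% critical value. Chance gives about 1 in 20 groups. Library cKO 3, the female knockout, was low for Uqcrc1 at 493 CPM (other cKO libraries 599.9 to 620.3) and for Atp5g3 at 474 CPM (584.6 to 595.4). Library cKO 4 was high for Sdhaf2 at 77.9 CPM (63.99 to 66.2) and for Atp5l at 121 CPM (109.7 to 110.9). Control 1 was low for Sdhd at 300.8 CPM (394.1 to 412.8) and for Uqcc1 at 170.7 CPM (195.7 to 199.5).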

How the results depend on the processing

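No paired analysis was possible because replicate numbers only follow the order of deposit and no label ties a control to a cKO library. With libraries scaled by total counts, 5 complex III genes passed the test instead of 9. In males only, with 3 libraries each, 4 complex III genes, 5 ATP synthase genes and 2380 of all genes passed. At an adjusted p under 0.01, 5 complex III genes, 4 ATP synthase genes and 1625 of all genes passed. Leaving out 1 library at a time gave 3 to 4 complex II genes, 6 to 9 complex III genes, 6 to 11 ATP synthase genes and 2222 to 2870 of all genes. Sdhaf2, which was near 0 throughout, had a log2 fold change above 0 with total counts (0.07), and values from -0.11 to 0.07 with 1 library left out, above 0 without control 4 (0.07) and near 0 without cKO 1 (0.0) or cKO 2 (0.01). The cause of these changes was not tested. Some of these alternatives had fewer libraries, and another had a stricter threshold. Members under 10 CPM, Atp5g2 and Sdhaf1, rest on few reads. Shares of the 3 subunit c genes kept their direction in every alternative run, and none passed the test, which with 3 libraries against 3 could not give a p below 0.1.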
